A study of Homo sapiens with 24 samples.

Results

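The adenoviral E1A protein was induced by doxycycline in oxaliplatin-treated HCT116 oxpl-R cells, and the transcriptome was compared with that of the same cells given oxaliplatin alone. HCT116 is a human colorectal carcinoma line, and HCT116 oxpl-R is its derivative made resistant by repeated short pulses of oxaliplatin. The comparison holds 6 of the 24 RNA-seq libraries of the series, 3 from cells given 0.5 µg/mL doxycycline 3 h before 25 µM oxaliplatin and 3 from cells given 25 µM oxaliplatin without doxycycline, both for 24 h. The members were chosen by their cell line and treatment labels, with no measured value. Each of the 24 libraries, controls included, came from cells that carry the TetOn-E1A construct. The other HCT116 oxpl-R libraries are an untreated control (n = 3) and an E1A group given doxycycline alone (n = 3), and parental HCT116 cells were treated in the same 4 ways (n = 3 each). No library came from cells given doxycycline without the transgene, so an effect of E1A and one of doxycycline itself cannot be told apart. The oxpl-R line is a mixed population with an altered chromosome number, not a single clone, and the labels call the replicates biological without naming separate cultures, so p-values measure the spread between these libraries.

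E1A is the first adenoviral gene product made after infection. It has no DNA-binding domain of its own and works by holding host proteins, chiefly the retinoblastoma family (RB1, RBL1 and RBL2) and the acetyltransferases EP300 and CREBBP. When E1A displaces E2F factors from the retinoblastoma proteins, E2F-driven genes for entry into S phase can be transcribed. Oxaliplatin forms platinum adducts on DNA, and the p53 response to DNA damage raises CDKN1A, an inhibitor of cyclin-dependent kinases that lets the retinoblastoma proteins keep E2F genes silent. The comparison therefore asks which genes differ when E1A is present during the drug response of resistant cells.

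The 6 libraries held between 26120500 and 37927700 estimated gene counts in the first of 2 deposited tables. The library of oxaliplatin-treated oxpl-R cells labelled replicate 1 stood apart, with 1.38% of its counts in mitochondrially encoded genes. The other 23 libraries of the series held between 11.03% and 19.7%, and the other 2 of its own group held 15.4% and 19.7%. Its part in the results was not tested beyond leaving it out. Levels below are counts scaled by trimmed mean of M-values (TMM) factors to the mean library size. Of 21 colon epithelial markers, 4 were at 0 in each oxaliplatin library (CDX1, CEACAM5 and ASCL2 among them) and 1 in each library with E1A added (CDX1), while the summed level of 22 markers of other cell types was between 2453 and 5065 normalized counts in oxaliplatin-treated cells and between 2597 and 3541 with E1A added. The summed epithelial markers lay between 340540 and 492489 and, with E1A, between 255779 and 283008, and the part of this difference in the results was not tested.

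**Figure D1:**
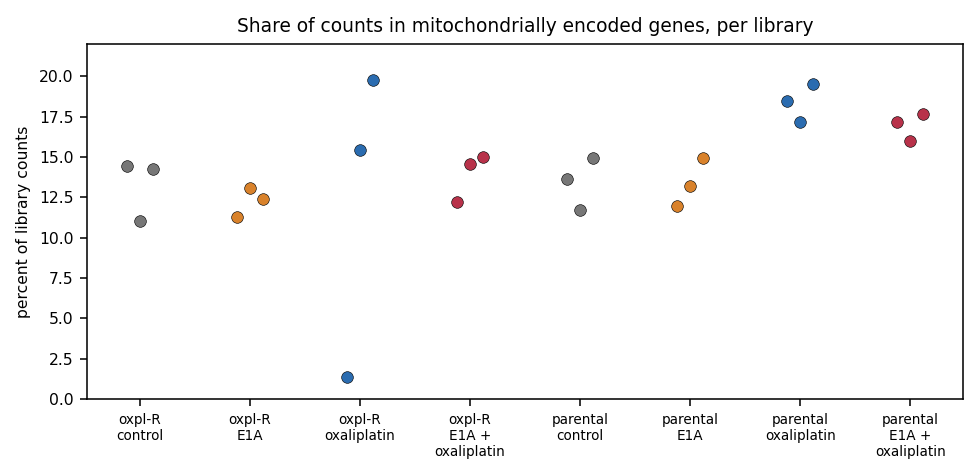
Share of each library's counts in mitochondrially encoded genes (y axis, percent), with 1 point per library and the 8 groups along the x axis. One oxaliplatin-treated oxpl-R library lies at 1.38%, and the other 23 lie between 11.03% and 19.7%.

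Transcripts of the transgene, listed as Ad5-E1A, were high in every induced library. In oxaliplatin-treated oxpl-R cells Ad5-E1A stood at 343, 277 and 263 normalized counts without doxycycline and at 15721, 16070 and 21029 with it. The groups did not overlap, and the difference was 5.90 on the log2 scale (SE 0.26, adjusted p = 8.1e-11, edgeR quasi-likelihood test). Without oxaliplatin the same cells went from 219 ± 27.5 to 20029 ± 3774 (SD, n = 3), and parental cells under oxaliplatin from 175 ± 12.9 to 11995 ± 5380, where replicate 1 of the induced parental libraries held 5826 and the other 2 held 15713 and 14447. The labels of the 6 libraries therefore match their transgene levels.

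Of 19745 genes tested in oxaliplatin-treated oxpl-R cells, 121 were higher with E1A, which is 0.613%, and 1 was lower, which is 0.00506% (adjusted p below 0.05, edgeR). Together these 122 were 0.618% of the genes tested, and the absolute log2FC was above 1 in 120 of them (0.608%). At an unadjusted p below 0.05, 1644 genes or 8.33% passed. Leaving out the oxaliplatin library with few mitochondrial counts gave 121 higher and 10 lower, with 97 of the 122 calls shared. The counts depended on single libraries, at 256 higher and 207 lower without oxaliplatin replicate 2, 341 and 65 without oxaliplatin replicate 3, 210 and 36 without E1A + oxaliplatin replicate 1, 159 and 18 without its replicate 2, and 137 and 128 without its replicate 3. With genes of low count removed by edgeR's filterByExpr, 43 were higher and 0 lower by edgeR, and 1262 had an unadjusted p below 0.05. A call lost with this filter need not mean that the gene was removed. All 48 tested replication and S phase genes passed it, and 5 of them were called. Without that filter DESeq2, which by default applies its own filter on mean count, called 14 lower. Among the 122, 37 genes were called under each of 16 alternative settings, and 9 of these also under limma on log2(CPM + 1), namely Ad5-E1A, E2F1, MCM4, MCM5, CDC25A, EGR1, ARC, NRARP and BRD2. Altogether 112 of the 122 were protein-coding by the GENCODE annotation, and the share among all tested genes was not counted. One of 31 gene lists held 47 of the 122, and these lists held 994 of the 19745 genes tested.

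**Figure D2:**
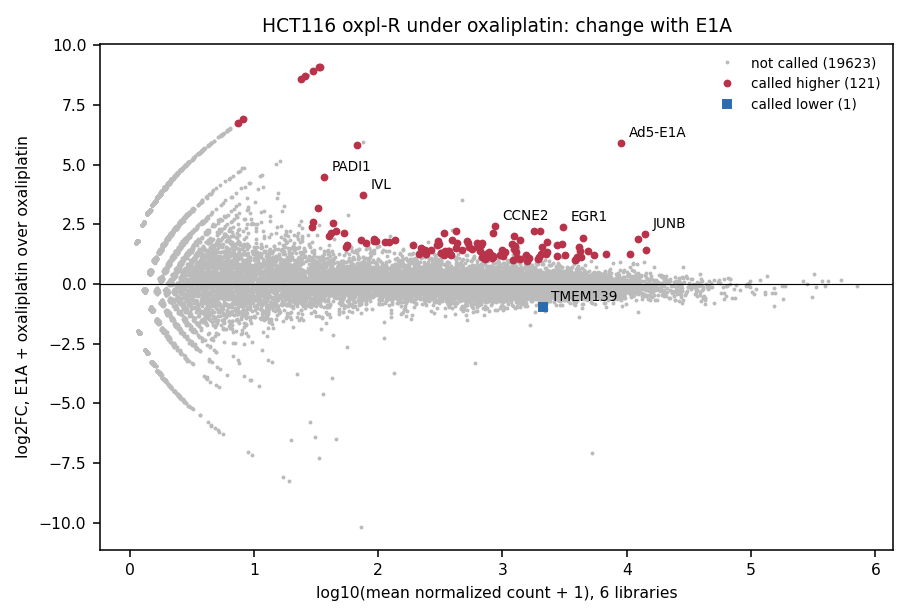
Difference between oxpl-R cells given E1A + oxaliplatin and oxaliplatin alone (y axis, log2FC) against mean level over the 6 libraries (x axis, log10 of the mean normalized count + 1), with 1 point per gene. The 121 genes called higher lie along the upper edge of the grey cloud of genes not called, with some grey points as high at low levels, and the 1 gene called lower, TMEM139, lies along the lower edge.

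Among RB family and E2F genes, E2F1, E2F2 and E2F8 rose when E1A was added. E2F1, the activator that drives entry into S phase (chr20:33675477-33686385), stood at 717, 594 and 607 normalized counts in oxaliplatin-treated oxpl-R cells and at 3099, 2363 and 3360 when E1A was added. Every library with E1A lay above each library without it, and the rise was 4.60-fold (log2FC 2.20, SE 0.22, adjusted p = 4.4e-05, edgeR). The E2F1 level with E1A and oxaliplatin, 2941 ± 517 (SD, n = 3), was close to the 2803 ± 246 of untreated oxpl-R cells. E2F2, another activator, rose 2.89-fold from 326 ± 54.6 to 941 ± 162 (adjusted p = 0.0062, edgeR), and E2F8, an atypical repressor that E2F factors themselves switch on, rose 2.74-fold from 300 ± 74.8 to 830 ± 102 (adjusted p = 0.017), a call lost with the filter on low counts. In all 3 of 13 RB family and E2F genes tested were called higher, against 0.613% of all genes, and 0 lower, with a median log2FC of 0.19 against 0.01 for all genes, and 3 were called without oxaliplatin replicate 1. The median was 0.05 without E1A + oxaliplatin replicate 1, 0.09 without its replicate 2, 0.36 without its replicate 3, 0.29 without oxaliplatin replicate 2 and 0.11 without oxaliplatin replicate 1. The retinoblastoma genes were not called. RB1 stood at 1497 ± 402 without and 1603 ± 433 with E1A (log2FC 0.09, SE 0.26), and RBL1, itself an E2F target, at 121 ± 50.1 and 249 ± 26.4 (log2FC 1.02, SE 0.32, adjusted p = 0.25). Of the 22 host cofactors bound by E1A none was called, with EP300 at a log2FC of 0.29 (SE 0.26) and CREBBP at 0.14 (SE 0.23).

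Among genes for DNA replication, 18 rose and none fell. All 48 tested members of the DNA replication and S phase list had a log2FC above 0, as did 50.7% of all genes, and 18 of them (37.5%) were called higher and 0 lower, against 0.613% of all genes. Their median log2FC was 0.99, compared with 0.01 for all genes, and 36 of the 48 had groups that did not overlap, against 8.31% of all genes in that direction. In these bulk libraries a change in the share of cells in S phase and a change in transcripts per cell cannot be told apart. The called members include genes for the steps from licensing to the fork: ORC1 of the origin recognition complex, the loading factor CDT1, the helicase subunits MCM2, MCM3, MCM4, MCM5 and MCM7, the helicase activators CDC45, GINS2 and GINS3, the nucleotide enzyme RRM2, the clamp loader subunit RFC4, the flap nuclease FEN1, the histone chaperone subunits CHAF1A and CHAF1B, the checkpoint mediator CLSPN and the CDT1 ubiquitin ligase subunit DTL. With the filter on low counts 5 of the 48 were called (median 0.98), with limma 2, with DESeq2 28, without the oxaliplatin replicate 1 library 16 (median 0.92), and without oxaliplatin replicate 3, the library that moved the count most, 34 (median 1.13).

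Promoter sequences of 3 genes called higher, E2F1, CDT1 and MCM7, are shown because the letters an E2F factor reads can be seen directly upstream of their starts. Each is the 250 bases before the RefSeq start on GRCh38.p14, written 5′ to 3′ on the gene's strand, and capitals mark the E2F words TTTGGCGC, TTTCGCGC, TTTCCCGC and TTTGCCGC on either strand. E2F1 lies on the minus strand at chr20:33686386-33686635, CDT1 on the plus strand at chr16:88803539-88803788 and MCM7 on the minus strand at chr7:100101398-100101647.
E2F1: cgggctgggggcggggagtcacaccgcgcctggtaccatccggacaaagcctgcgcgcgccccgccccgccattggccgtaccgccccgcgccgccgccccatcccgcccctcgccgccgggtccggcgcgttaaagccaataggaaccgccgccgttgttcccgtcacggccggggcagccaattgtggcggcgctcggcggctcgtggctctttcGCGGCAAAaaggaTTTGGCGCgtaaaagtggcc
CDT1: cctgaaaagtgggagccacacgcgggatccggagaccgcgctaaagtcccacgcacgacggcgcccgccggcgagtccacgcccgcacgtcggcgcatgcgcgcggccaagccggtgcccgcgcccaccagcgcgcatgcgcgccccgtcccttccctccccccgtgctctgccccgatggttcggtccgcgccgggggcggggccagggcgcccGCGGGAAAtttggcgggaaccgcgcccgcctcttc
MCM7: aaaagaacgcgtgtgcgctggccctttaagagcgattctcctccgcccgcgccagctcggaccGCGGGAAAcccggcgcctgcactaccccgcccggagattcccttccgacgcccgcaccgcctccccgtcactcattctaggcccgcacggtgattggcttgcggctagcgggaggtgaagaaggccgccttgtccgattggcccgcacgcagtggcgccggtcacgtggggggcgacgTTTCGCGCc
The E2F1 window held 2 such words, CDT1 1 and MCM7 2. Over the full RefSeq window of 300 bases, which runs 50 bases past the start, an E2F word was found in 21 of the 92 genes called higher that have a RefSeq promoter (22.8%), in 19 of 41 replication and S phase genes (46.3%), in 2 of 30 p53 targets (6.67%) and in 4.76% of the 13709 tested genes that have one. These are counts of letters and not measured binding.

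MCM5, a subunit of the replicative helicase, was the list member with the smallest adjusted p. It stood at 1687, 1312 and 1324 normalized counts with oxaliplatin and at 5049, 3963 and 4798 with E1A added, a 3.20-fold rise (log2FC 1.68, SE 0.21, adjusted p = 0.00039, edgeR). The lowest library with E1A was above each of those without it. CDT1, which loads the helicase on origins, stood at 795, 533 and 519 and at 2370, 1602 and 2543, a 3.54-fold rise (adjusted p = 0.00066). MCM4 rose 2.61-fold from 2699 ± 91.2 to 7065 ± 464 (adjusted p = 0.0018) and MCM2 2.58-fold from 2337 ± 650 to 6010 ± 767 (adjusted p = 0.0051). RRM2, the regulated subunit of ribonucleotide reductase, rose 2.33-fold from 3247 ± 520 to 7593 ± 1184 (adjusted p = 0.013), a call that was lost with the filter on low counts. CDC6 just missed the threshold at 725 ± 280 and 1681 ± 391 (log2FC 1.20, SE 0.28, adjusted p = 0.058). PCNA, the replication clamp and also a p53 target, overlapped between groups, at 16554 ± 2602 and 20848 ± 2076 (log2FC 0.33, SE 0.22, adjusted p = 0.75).

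**Figure D3:**
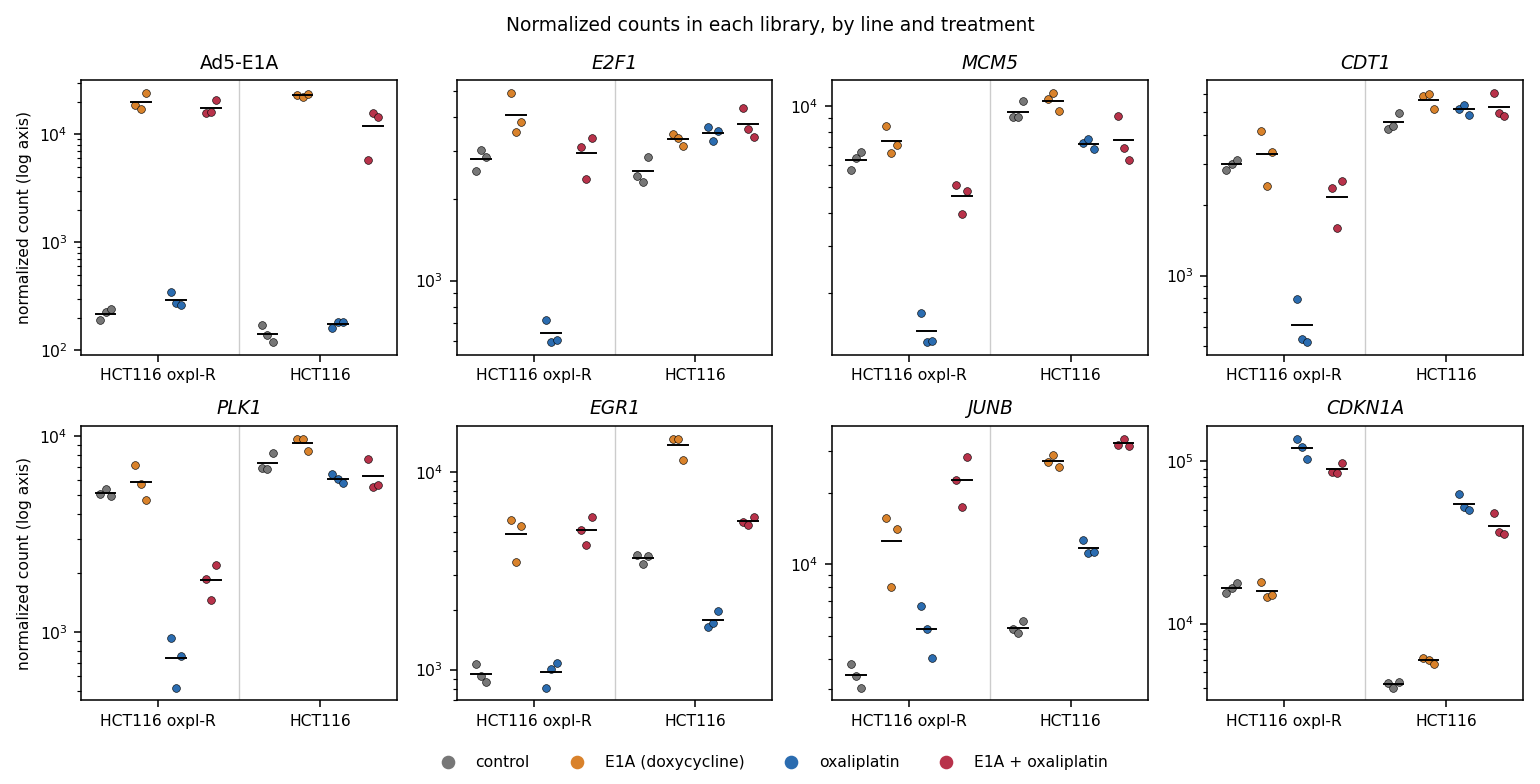
Normalized counts of 8 genes (y axes, log scale) in each of the 24 libraries, with 1 point per library, bars at group means, HCT116 oxpl-R left and parental HCT116 right in each panel. In oxpl-R cells E2F1, MCM5, CDT1 and PLK1 are low with oxaliplatin and higher with E1A + oxaliplatin, EGR1 and JUNB are high wherever E1A is induced, and CDKN1A is high in both oxaliplatin groups.

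Among genes of G2 and M phase, 9 rose and none fell. Of 44 tested members 42 lay above 0, 9 were called higher (20.5%) and 0 lower, and the median log2FC was 0.88, against 50.7% above 0, 0.613% called higher and a median of 0.01 for all genes. CDK1, the mitotic kinase, stood at 1892 ± 750 and 4484 ± 480 (2.34-fold, adjusted p = 0.048), and FOXM1, the factor that switches on late cell cycle genes, at 1040 ± 111 and 2227 ± 227 (2.14-fold, adjusted p = 0.018). PLK1, a kinase of spindle assembly, was at 933, 521 and 755 normalized counts without E1A and at 1868, 1470 and 2220 with it (log2FC 1.33, SE 0.25, adjusted p = 0.016, edgeR). MKI67, the proliferation marker, rose 2.92-fold from 1061 ± 235 to 3127 ± 810 (adjusted p = 0.0041), and the chromosomal passenger subunits CDCA8 and BIRC5 rose 2.32-fold and 2.06-fold. CCNB1, the cyclin partner of CDK1, was not called, at 2106 ± 597 and 2706 ± 1039 with overlapping groups (adjusted p = 0.77). With the filter on low counts 2 members were called, MKI67 and CDCA8, with limma 0, and without oxaliplatin replicate 1, 10 (median 0.73). The list depended on other libraries too, with 33 called (median 1.22) without oxaliplatin replicate 3, 17 (median 0.98) without E1A + oxaliplatin replicate 1, and medians of 0.52 without oxaliplatin replicate 2 and 0.60 without E1A + oxaliplatin replicate 3. The PLK1 promoter is shown for contrast with the E2F-class genes, since late cell cycle promoters carry another pair of motifs. Capitals mark the CHR letters TTTGAA and the CCAAT box in the 250 bases before its start (chr16:23678639-23678888, plus strand, GRCh38.p14).
PLK1: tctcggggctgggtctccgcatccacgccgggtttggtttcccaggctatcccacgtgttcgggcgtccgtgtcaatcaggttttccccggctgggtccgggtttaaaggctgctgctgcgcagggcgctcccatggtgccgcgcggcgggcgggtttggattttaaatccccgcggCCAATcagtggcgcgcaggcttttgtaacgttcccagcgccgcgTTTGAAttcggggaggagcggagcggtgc
Over the full window of 300 bases the CHR words TTTGAA or TTCGAA stood in 28 of 38 G2 and M phase genes (73.7%) and 2 of 41 replication and S phase genes (4.88%), against 12.5% of all tested genes, and CCAAT in 76.3% of the G2 and M phase genes against 35.5% of all tested genes.

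Set against untreated oxpl-R cells, the medians of both cell cycle lists with E1A and oxaliplatin lay between the oxaliplatin level and the control level. The median replication and S phase gene was at 38.3% of its control level with oxaliplatin and at 76.0% with E1A and oxaliplatin, and the median G2 and M phase gene at 25.6% and 43.9%. With E1A alone the 2 medians were 112% and 110%. In parental cells given oxaliplatin they were 67.8% and 55.4%. The difference between oxaliplatin and control was not tested here.

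Around the G1 to S switch, 3 of 17 G1 cyclins and CDK inhibitors were called higher and 0 lower, against 0.613% of all genes called higher, and 3 were called without oxaliplatin replicate 1. CCNE2, a cyclin that starts S phase with CDK2, showed one of the larger differences, from 106, 271 and 413 normalized counts to 1477, 1413 and 1501 (5.46-fold, adjusted p = 0.0018). The libraries with E1A were close to each other, the library with few mitochondrial counts was the lowest of the others, and the call was lost with the filter on low counts. CDC25A, the phosphatase that activates CDK2, rose 2.78-fold from 647 ± 22.6 to 1805 ± 102 (adjusted p = 0.0016), and CDKN2C, an inhibitor of CDK4 and CDK6 that is also an E2F target, 3.29-fold from 244 ± 63.1 to 803 ± 140 (adjusted p = 0.0039). CCNE1 did not pass, at 2081 ± 269 and 2642 ± 147 (log2FC 0.34, SE 0.21). CDKN1A, the p53-driven inhibitor, lay at 138221, 121890 and 103965 with oxaliplatin and at 86524, 85264 and 97909 with E1A added, so its groups did not overlap, but it did not pass the test (log2FC -0.43, SE 0.24, adjusted p = 0.69). Both are far above the 16570 ± 1086 of untreated cells.

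Repair and chromatin genes tied to replication behaved in part alike. In the Fanconi and homologous recombination list 2 of 34 were called higher and 0 lower, against 0.613% of all genes called higher, with a list median of 0.40. Without oxaliplatin replicate 3 the list had 10 called (median 0.70) and without E1A + oxaliplatin replicate 1 it had 4 (median 0.58), while the median was 0.26 without oxaliplatin replicate 2 and 0.22 without E1A + oxaliplatin replicate 3. EXO1, a resecting nuclease and one of the 2, went from 144 ± 64.4 to 453 ± 136 (3.10-fold, adjusted p = 0.030, edgeR), a call lost with the filter on low counts and without the oxaliplatin replicate 1 library. H2AX, the histone variant phosphorylated at DNA breaks and chosen here after its values were seen, went from 2243, 2012 and 1267 normalized counts to 6668, 5726 and 8674 (3.83-fold, adjusted p = 0.00034, edgeR). ASF1B, a histone chaperone of dividing cells, rose 3.42-fold from 1032 ± 128 to 3548 ± 653 (adjusted p = 0.00041), and TICRR, an initiation factor that brings CDC45 to origins, 3.18-fold from 148 ± 11.2 to 473 ± 55.6 (adjusted p = 0.0055). Of 48 replication-dependent histone genes 23 lay above 0 and the median was -0.19, which became 0.31 without oxaliplatin replicate 2, 0.24 without oxaliplatin replicate 3 and 0.13 with the replicate number as a block, so the list had no stable direction. The 2 called, H2AC18 and H4C14, were called without oxaliplatin treatment too, and neither was called with the filter on low counts. Histone genes have near-identical copies, so the split of reads between them is uncertain.

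Some immediate early genes rose with E1A. Of 30 AP-1 and immediate early genes 5 were called higher (16.7%) and 0 lower, against 0.613% of all genes called higher, with a median log2FC of 0.22 against 0.01. At an unadjusted p below 0.05 (edgeR), 8 were higher and 5 lower, against 1099 and 545 of all 19745 genes. Groups did not overlap for 9 higher and 6 lower members, against 1640 and 921 of all genes, so the list moved both ways. Without oxaliplatin replicate 1, 6 were called. Without oxaliplatin replicate 3 the median was 0.09, with 5 called higher and 2 lower. EGR1, a growth factor-induced zinc finger activator, stood at 808, 1013 and 1085 normalized counts with oxaliplatin and at 5094, 4273 and 5961 with E1A added, a 5.24-fold rise (log2FC 2.39, SE 0.23, adjusted p = 2.7e-05, edgeR). The untreated level of EGR1 was 955 ± 102 (SD, n = 3), near the 969 ± 144 with oxaliplatin alone. JUNB, an AP-1 subunit, rose 4.26-fold from 5364 ± 1323 to 22760 ± 5343 (adjusted p = 0.00015), EGR3 3.61-fold to 213 ± 15.9 (adjusted p = 0.0046), FOSB 2.81-fold (adjusted p = 0.030) and the MAP kinase phosphatase DUSP1 2.23-fold (adjusted p = 0.025). FOS and JUN were not called, at a log2FC of 0.84 (SE 0.28) and 0.45 (SE 0.22). The EGR1 promoter is shown because 2 CArG boxes, the motif read by serum response factor, lie in it, marked by capitals in the 250 bases before the start (chr5:138465229-138465478, plus strand, GRCh38.p14).
EGR1: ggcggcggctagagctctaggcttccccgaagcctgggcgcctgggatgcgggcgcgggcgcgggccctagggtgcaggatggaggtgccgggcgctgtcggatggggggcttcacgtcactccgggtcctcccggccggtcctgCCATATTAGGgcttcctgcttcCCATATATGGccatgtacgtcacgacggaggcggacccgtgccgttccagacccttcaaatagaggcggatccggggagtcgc
A CArG box was found in the window of 2 of the 92 genes called higher (2.17%), against 1.20% of all tested genes.

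Further genes called higher were picked for mention after their values were seen. BRD2, a bromodomain reader of acetylated histones, went from 7666, 7949 and 7333 normalized counts to 22441, 19974 and 19571 (2.70-fold, adjusted p = 0.0016, edgeR). SPEN, a corepressor in Notch signalling, rose 2.96-fold from 2084 ± 434 to 6161 ± 1817 (adjusted p = 0.0056). The Notch-induced genes NRARP and HEY1 rose 4.37-fold (310 ± 56.9 to 1355 ± 219, adjusted p = 0.00015) and 3.54-fold (31.4 ± 2.29 to 112 ± 8.87, adjusted p = 0.012). ARC, an activity-regulated immediate early gene, rose 4.65-fold from 714 ± 178 to 3309 ± 704 (adjusted p = 7.6e-05). HSPA1B, an inducible HSP70 gene, rose 3.68-fold (adjusted p = 0.0011), while its near-identical neighbour HSPA1A did not pass (log2FC 1.58, SE 0.42, adjusted p = 0.11), and reads that fit both genes make the split between them uncertain. HSPA1B was the only one of 31 heat shock genes called, against 0.613% of all genes called higher.

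Apart from the transgene, the largest fold changes were those of genes that oxaliplatin-treated oxpl-R cells hardly expressed. PADI1, a peptidylarginine deiminase of the epidermis, was at 1.00, 6.67 and 1.17 normalized counts without E1A and at 75.5, 72.9 and 56.1 with it (log2FC 4.49, SE 0.59, adjusted p = 0.00059, edgeR). IVL, involucrin of the epidermal cornified envelope, stood at 9.03, 12.2 and 9.39 and at 180, 141 and 91.9 (13.4-fold, adjusted p = 7.6e-05), with no overlap. SYNGR4 rose 9.08-fold, the chemokine receptor CXCR1 5.97-fold, SERTAD4 5.93-fold and the Wnt receptor FZD8 5.23-fold, each from a mean of 12.1 or less. AMIGO3, HSPB7 and AGMAT had 0 counts in each oxaliplatin library, and a floor of 3 counts per library gives rises of at least 17.7-fold for AMIGO3, 4.39-fold for HSPB7 and 3.90-fold for AGMAT. AMIGO3 was also at 0 in 2 of 3 untreated libraries and 2 of 3 libraries given E1A alone, and it overlaps RNF123 and GMPPB, so its reads are uncertain. The calls of AMIGO3, SYNGR4, CXCR1, FZD8, HSPB7 and AGMAT were lost with the filter on low counts, and those of HSPB7 and AGMAT also without the oxaliplatin replicate 1 library. COL1A2, a fibroblast collagen and the only marker of another cell type that was called, rested on 1 library, at 2.57, 10.4 and 381 with E1A, and its groups overlapped. The only gene called lower was TMEM139, a transmembrane protein, which fell 1.94-fold from 2808 ± 315 to 1444 ± 143 (log2FC -0.96, SE 0.19, adjusted p = 0.031).

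By position, 8 of the genes called higher lay within 1.79 Mb of chromosome 1 (chr1:15490832-17284233, GRCh38), a pattern noticed after the values were seen. They are CASP9, AGMAT, SPEN-AS1, SPEN, HSPB7, EPHA2-AS1, PADI1 and PADI3, in the order of the chromosome. That is 18.6% of the 43 genes tested there, compared with 0.619% of all tested genes with a position. The span was set by the first and last called genes of the run, so its share is high by construction. The run shrank with the filter on low counts to 2 called genes of 29 tested, SPEN and PADI1, with limma to 1, and without oxaliplatin replicate 1 to 4 of 43. The other 35 genes of the span included DNAJC16 (log2FC -0.10), EPHA2 (0.12) and SDHB (-0.02), and 19 of the 35 lay above 0. SPEN, its antisense transcript SPEN-AS1 and CASP9, the initiator caspase of the mitochondrial pathway, had fold changes of 2.54, 3.67 and 1.91 without oxaliplatin, of which those of SPEN and SPEN-AS1 passed the test, and log2FC values of 1.38, 1.80 and 0.98 in parental cells, of which none passed. PADI1 and PADI3 had log2FC values of 4.08 and 1.92 without oxaliplatin and 1.04 and -0.33 in parental cells, and none of these passed the test. Whether the counting used strand is not given in the sources used here, so SPEN and SPEN-AS1, and likewise EPHA2 and EPHA2-AS1, cannot be told apart where they overlap. The only other run of 3 or more called genes with gaps under 2 Mb lay on chromosome 6 (chr6:31158331-33409896) and held TCF19, HSPA1B, PSMB9, BRD2 and KIFC1, 5 of 111 tested.

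Genes of the p53 response, cell death and stress were not called as groups. Of all genes tested 0.613% were called higher and 0.00506% lower, the shares to set beside the counts below. Of 40 p53 targets 0 were called, 10 lay above 0 and the median log2FC was -0.17, and their median level was 235% of control with oxaliplatin and 227% with E1A added. At an unadjusted p below 0.05, 0 of them were higher and 6 lower, and 2.76% of all genes were lower. MDM2, which degrades p53, stood at 20612 ± 2844 and 15115 ± 4474 (log2FC -0.45, SE 0.25), and GDF15, a secreted stress factor, at 51274 ± 16391 and 33667 ± 1613 (log2FC -0.60, SE 0.24, adjusted p = 0.47). The cell death genes BBC3, BAX, PMAIP1 and FAS had log2FC values of 0.11, 0.03, 0.44 and -0.09, with standard errors between 0.22 and 0.27. Of 15 BCL2 family genes 0 were called and 9 lay above 0. Their median log2FC was 0.11, with values from -0.64 to 1.29. DESeq2, the replicate block with or without mitochondrially encoded genes, and the fits of 12 and of 24 libraries each called 1 of them higher. So did the fits without oxaliplatin replicate 3 and without E1A + oxaliplatin replicate 3. MCL1 lay at -0.26 (SE 0.23) and BCL2L1 at -0.64 (SE 0.21, adjusted p = 0.28, edgeR). Of 20 caspase and death receptor genes 1, CASP9, was higher (808 ± 123 to 1626 ± 142, 2.01-fold, adjusted p = 0.038, edgeR). This call was lost with the filter on low counts and without any 1 of 4 libraries, oxaliplatin replicate 2 and the 3 with E1A. Chosen after their values were seen, the E2F1-responsive death regulators TP73 and SIVA1 rose 2.19-fold (adjusted p = 0.035) and 2.18-fold (adjusted p = 0.041). Hypoxia-inducible genes lay low as a group, with 22 of 24 below 0 and a median of -0.39, yet 0 were called and 6 were lower at an unadjusted p below 0.05. MYC stood at 9574 ± 1539 and 6094 ± 1144 (log2FC -0.65, SE 0.22, adjusted p = 0.33). In the interferon list 1 of 44 was called, the antiviral enzyme OAS3 (2.16-fold), and in the MHC class I list 1 of 19, the immunoproteasome subunit PSMB9 (3.45-fold), with medians of 0.01 and 0.04. Both calls were lost with the filter on low counts, OAS3 also without E1A + oxaliplatin replicate 1 or 2, and PSMB9 without oxaliplatin replicate 1 or E1A + oxaliplatin replicate 3. IFIT1 was not called, at a log2FC of 0.06 (SE 0.40), and CDH1, the epithelial cadherin, lay at -0.46 (SE 0.21). Mitochondrially encoded respiratory genes had a median of 0.15, which became -0.40 without the library with few mitochondrial counts, and 0 of 13 were called in either case.

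The same doxycycline contrast without oxaliplatin, and in parental cells with oxaliplatin, shared no library with the main comparison. The labels used here give no hours of doxycycline for the groups given E1A alone, so the length of induction may differ there. Without oxaliplatin 15 of 20268 genes (0.074%) were called in oxpl-R cells, all higher, and in oxaliplatin-treated parental cells 4 of 19169 (0.0209%) were called, Ad5-E1A, EGR1, JUNB and HSPA1B. Of the 121 genes higher in the main comparison, 14 were called without oxaliplatin. The median log2FC of the 121 was 0.47 there, with 114 above 0 and 62 at an unadjusted p below 0.05 (edgeR). In parental cells 120 were tested, with a median of 0.24, 108 above 0 and 27 at an unadjusted p below 0.05. All genes had a median of 0.01 in each, with 1112 of 20268 and 359 of 19169 at an unadjusted p below 0.05. The 121 were chosen by their values in the main comparison, so lower values elsewhere were likely from the start. The replication and S phase list had a median of 0.17 without oxaliplatin and of 0.14 in parental cells, with 0 of 48 called in each. E2F1 had a log2FC of 0.54 (SE 0.16, adjusted p = 0.57) and 0.10 (SE 0.17), and MCM5 of 0.23 (SE 0.15) and 0.04 (SE 0.19). For EGR1 the values were 2.34 (SE 0.20, adjusted p = 0.0039) and 1.65 (SE 0.17, adjusted p = 0.012), and for BRD2 1.17 (SE 0.15, adjusted p = 0.027) and 0.97 (SE 0.16, adjusted p = 0.24).

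The test of the difference itself gave few calls. Between oxpl-R cells with and without oxaliplatin, 0 of 21575 genes differed in their response to E1A (edgeR interaction term), with 568 (2.63%) at an unadjusted p below 0.05 and 15 called by DESeq2. With the replicate number as a block 14 were called, all higher, and without oxaliplatin replicate 1, 2 were called. The genes with the smallest p were E2F1 (log2 difference 1.65, SE 0.26, adjusted p = 0.072), MCM5 (1.43, SE 0.25, adjusted p = 0.13), CDT1, MCM4, ASF1B and TICRR. Of the 48 replication and S phase genes 46 had a difference above 0 and 32 an unadjusted p below 0.05 in that direction, against 49% and 1.71% of all genes, with a median of 0.76. Between the lines under oxaliplatin 2 of 21095 genes (0.00948%) differed in their response to E1A, E2F1 by 2.10 (SE 0.29, adjusted p = 0.0055) and ASF1B by 1.87 (SE 0.31, adjusted p = 0.032) on the log2 scale, both with the larger response in oxpl-R cells. Without oxpl-R oxaliplatin replicate 1, 8 genes were called. In parental cells E2F1 stood at 3502 ± 207 with oxaliplatin and 3767 ± 478 with E1A added, and ASF1B at 6632 ± 355 and 6277 ± 1348. MCM5 (1.63, SE 0.30), CDT1 (1.79, SE 0.32) and NRGN (1.75, SE 0.32) each missed the threshold with an adjusted p of 0.053. For EGR1 the difference was 0.05 (SE 0.28) by oxaliplatin and 0.74 (SE 0.29) by line, and neither was called.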

How the data were processed

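RNA-seq of HCT116 TetOn-E1A and HCT116 oxpl-R cells was used. The authors trimmed reads with Trimmomatic, quantified them with Salmon 1.6.0 against a GENCODE 47 (GRCh38) transcriptome with sequence and GC bias correction, and summed transcripts to genes with tximport. The deposited gene values are estimated counts, which need not be whole (15.9% to 30.4% of values per library in the count table were not). The second deposited table, named for TPM, also held estimated counts by its values; it supplied the genes listed after SETP6, where the count table ends. The second table as used here stops at TSC22D3, so genes listed after it were not analysed here, and 13 gene lists lack 1 to 3 members (48 of 51 in the replication list). Column mapping left 0 columns unused.

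Values were rounded and tested with edgeR 4.0.16 (TMM, quasi-likelihood test, R 4.3.3), separately per comparison on its own libraries, keeping genes with any count. Benjamini-Hochberg adjustment was made separately for each deposited table, not jointly over both, with a threshold of 0.05. Interactions used 12 libraries. Alternatives used DESeq2 1.42.0, limma 3.58.1 on log2(CPM + 1), other filters, fits and left-out libraries. Steps were tested on simulated data.

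The members and gene lists were chosen with earlier results of these data known, some lists coming from that earlier work. Named genes were the 12 largest changes each way that did not overlap and had at least 10 counts in the higher group, up to 5 called genes per list, list members whose role is described, the 6 smallest p-values of each interaction, and a fixed set of cell cycle, p53, death and E1A partner genes. Gene positions came from GENCODE 44 and promoters from RefSeq GRCh38.p14. A few members of the gene lists are not reported here by name.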

Additional observations from a re-analysis of the deposited data

Results flagged for a closer look

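The response to E1A under oxaliplatin differed between the lines for 2 genes by the edgeR interaction term. E2F1 differed by 2.10 on the log2 scale (SE 0.29, adjusted p = 0.0055), with a log2FC of 2.20 in HCT116 oxpl-R and 0.10 in parental cells. Over the alternatives the E2F1 difference lay between 1.99 and 2.24. ASF1B differed by 1.87 (SE 0.31, adjusted p = 0.032), with a log2FC of 1.77 and -0.09. The ASF1B call was lost in 4 of 17 alternatives, with the filter on low counts, without parental oxaliplatin replicate 1, without parental E1A + oxaliplatin replicate 3 and without oxpl-R E1A + oxaliplatin replicate 3, where the adjusted p (edgeR) reached 0.111. In parental cells the induced library with the fewest Ad5-E1A transcripts, replicate 1, held 5826 normalized counts. Its part in the difference was not tested beyond leaving it out. Without it 1746 genes had an unadjusted p below 0.05 in parental cells (edgeR), against 359 with it, and 4 were called. For the line difference 1062 did, against 633, and 4 were called. Without parental oxaliplatin replicate 3 the numbers were 935 and 1267. Without any other 1 of these parental libraries they lay between 202 and 239, and between 494 and 567.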

How the results depend on the processing

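For E1A under oxaliplatin in HCT116 oxpl-R, 122 genes were called, 121 higher and 1 lower. RLE normalization gave 165 (155 higher, 10 lower), DESeq2 224 (210 and 14), filterByExpr 43 (43 and 0), at least 10 counts in every library 43 (43 and 0), all 24 libraries in one fit 321 (292 and 29), the 12 oxpl-R libraries 218 (211 and 7), genes all taken from the second deposited table gave 125 (118 and 7), and limma 11 (11 and 0). Leaving out 1 library gave 131 to 463 called, 121 to 341 higher and 10 to 207 lower. Other settings were added after seeing the data: without mitochondrially encoded genes 138 were called (136 and 2), and with the replicate block as well 288 (247 and 41). Without oxaliplatin the 15 calls became 84 with DESeq2, 9 with filterByExpr and 2 to 25 with 1 library left out. In parental cells the 4 calls became 22 with DESeq2 and 1 to 4 with 1 library left out. For the interaction with oxaliplatin the 0 calls became 15 with DESeq2 and 0 to 2 with 1 library left out. For the line difference the 2 calls became 6 with RLE, 32 with DESeq2, 1 with filterByExpr, 6 without mitochondrially encoded genes and 1 to 15 with 1 library left out. No called value changed sign. Uncalled values near 0 did, such as the log2FC of BAX (0.03, and -0.17 without oxaliplatin replicate 3) and BBC3 (0.11, and -0.13), and the medians of the mitochondrially encoded (0.15, and -0.40 without oxaliplatin replicate 1) and histone lists (-0.19, and 0.31 without oxaliplatin replicate 2). The cause of these shifts was not tested.

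Replicate numbers were not taken to pair the libraries, since same-numbered libraries of the main comparison had correlations of their deviations of 0.00221, 0.149 and 0.236 over 11103 genes, not all above 0.1. Across the 12 oxpl-R libraries all same-number correlations were above 0.1 in 4 of 6 pairs of groups, and the lowest was -0.0563, so shared deviations by number were seen in part. With the replicate block 252 genes were called (229 higher, 23 lower) in the main comparison, 25 without oxaliplatin, 0 in parental cells (268 at an unadjusted p below 0.05 by edgeR, and 22 by DESeq2 without the block), 14 for the interaction and 6 for the line difference.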
